A study of Mus musculus with 8 samples.

Results

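Genes of skeletal muscle were followed in the transcriptome of mouse back skin. The 34 genes encode proteins of the contractile apparatus of striated muscle, its calcium handling and its energy supply, and they were selected on symbols after FPKM values of these samples were known, out of 50981 gene symbols in the series. Of the 34 genes, 34 were found in the table of unperturbed samples and 33 in the tables for hair plucking and for wounds, in which Acta1, the actin of skeletal muscle thin filaments, was not analysed here. Because the FPKM values themselves guided the choice of genes, all levels and ratios are descriptions and no test was made.

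The study compared wild type (WT) mice with JunB cKO mice, in which Cre recombinase under the control of the keratin 14 promoter deletes floxed alleles of JunB in basal epidermal progenitors and their progeny. All mice were on the C57BL/6 background, the labels give the genotypes as JunB +/+ and JunB -/-, and the RNA of 3 samples was pooled for each library. Unperturbed samples (1 library per genotype) are called keratinocytes isolated with trypsin in the labels and skin of mice aged 60 days in the study, plucked skin (1 library per genotype) was taken at postnatal day 58, 4 days after hair depilation, and wound tissue (2 libraries per genotype) was taken 30 days after wounding, with the study's methods giving full-thickness punches of 6 mm diameter. Keratin 14 is a keratin of basal epithelial cells and not of muscle fibres, so that the deletion is not directed at the cells described here. Each table holds 1 FPKM value (reads scaled to transcript length and library size) per gene and genotype, also for the 2 wound libraries, and the spread between libraries is therefore unknown for all of them. Tables were normalised separately, and levels from different tables are given side by side without a ratio.

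Mouse skin rests on the panniculus carnosus, a thin sheet of striated muscle beneath the dermal fat, while smooth muscle occurs in the arrector pili muscles and in vessel walls. In a striated muscle fibre, thick filaments of myosin pull on thin filaments of actin when calcium binds to the troponin complex. Calcium is released from the sarcoplasmic reticulum through ryanodine receptors and is pumped back by SERCA pumps. Fast and slow fibres use mostly different genes for several components, so that pairs of genes help to tell fibre types apart. The tables do not show from which muscle the RNA came.

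The promoters of highly expressed members are shown because many of these genes had lower FPKM values together in plucked JunB cKO skin. RefSeq (GRCm38.p6) gave an entry for 27 of the 34 genes and none was at hand for Neb, Tnnt3, Tnni2, Actn3, Trdn, Cox6a2 and Mylk2. The 250 bases before the start are printed for the 4 genes with an entry and the highest summed FPKM, with matches to any of 4 short motifs in capitals. They are the promoters of Mylpf (chr7:127211358-127211607, plus strand), Tpm2 (chr4:43523555-43523804, minus strand), Tnnc2 (chr2:164779735-164779984, minus strand) and Ckm (chr7:19410844-19411093, plus strand).
Mylpf: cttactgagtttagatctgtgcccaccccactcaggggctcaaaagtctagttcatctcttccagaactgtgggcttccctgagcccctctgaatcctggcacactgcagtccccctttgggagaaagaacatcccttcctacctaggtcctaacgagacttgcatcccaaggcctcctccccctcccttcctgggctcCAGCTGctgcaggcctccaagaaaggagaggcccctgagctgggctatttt
Tpm2: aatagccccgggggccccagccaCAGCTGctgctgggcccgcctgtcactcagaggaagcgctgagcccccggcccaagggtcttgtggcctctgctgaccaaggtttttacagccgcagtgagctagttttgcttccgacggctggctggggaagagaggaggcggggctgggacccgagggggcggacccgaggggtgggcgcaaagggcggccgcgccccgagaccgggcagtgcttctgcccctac
Tnnc2: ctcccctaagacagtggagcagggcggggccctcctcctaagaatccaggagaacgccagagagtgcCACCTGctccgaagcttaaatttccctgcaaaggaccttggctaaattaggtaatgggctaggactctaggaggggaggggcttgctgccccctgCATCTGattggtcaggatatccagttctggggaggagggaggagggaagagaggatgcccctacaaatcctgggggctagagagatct
Ckm: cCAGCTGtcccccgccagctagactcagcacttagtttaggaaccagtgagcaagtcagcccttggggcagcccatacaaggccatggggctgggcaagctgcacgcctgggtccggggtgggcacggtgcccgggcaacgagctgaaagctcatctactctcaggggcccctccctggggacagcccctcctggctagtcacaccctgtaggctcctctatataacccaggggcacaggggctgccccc

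All capitals in these 4 sequences are matches to CANNTG, the E-box bound by myogenic bHLH factors, with 2 matches in Tnnc2 and 1 in each of the other sequences. Matches on either strand were counted and the motifs were allowed to overlap. CANNTG was present in 22 of 27 members and in 66.2% of all 32851 promoters of the same length. For members 1 entry per gene was used, whereas the shares of all promoters count every entry. The AP-1 site TGANTCA, bound by Jun and Fos dimers, was present in 2 of 27 members (Ldb3 and Myh1) and in 6.75% of all promoters. The MEF2 motif occurred in 5 of 27 members (Myh1, Myh4, Pgam2, Pvalb and Ttn) and in 2.92% of all promoters, and the CArG box of serum response factor occurred in 3 (Acta1, Ldb3 and Myh4) and in 1.47%. These counts describe letters in a short window and say nothing about binding.

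Some facts of the series bear on all values. Junb had an FPKM of 268 in WT and 31.4 in JunB cKO in unperturbed samples, 40.8 and 11.7 after plucking, and 33.4 and 15.4 in wounds. Low FPKM values of genes with a single exon fell in steps of whole reads, from which 1 FPKM over 1 kb of effective transcript length stood for 16.9 reads in unperturbed WT, 4.98 in unperturbed JunB cKO, 16.3 in plucked WT and 12.9 in plucked JunB cKO skin. Read numbers given below were estimated from these steps and the longest coding transcript, and they cover counting only. A value listed at 0 was not told apart from a failed estimate, since the status given for each locus was not used. After plucking, 123 symbols had at least 10 FPKM in WT and 0 in JunB cKO, while 207 symbols had the opposite pattern.

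In plucked skin, 24 of 33 skeletal muscle genes had lower FPKM values in JunB cKO than in WT and 4 had higher ones. Of the 14 genes of fast muscle fibres, 13 were lower and 0 higher. The sum over 33 members was 624 FPKM in WT and 176 in JunB cKO, which is 3.54-fold lower. The median log2 ratio of JunB cKO over WT (0.1 FPKM added to each value) was -1.52, beside a median of 0.03 over all 16221 symbols with at least 1 FPKM in either genotype. With 1 FPKM added to each value, 17 members passed the 2-fold limit downwards in JunB cKO and 2 passed it upwards, beside 16.0% (lower) and 18.2% (higher) of these symbols. Without members listed at 0 in either genotype, 13 passed it downwards and 0 upwards. Of the 33 members, 26 had at least 1 FPKM in either genotype. Of the 21 members above 0 in both genotypes, 20 were lower in JunB cKO, with a median of 4.46-fold. With bulk tissue, fewer muscle fibres in the sample and less RNA per fibre cannot be told apart.

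**Figure D1:**
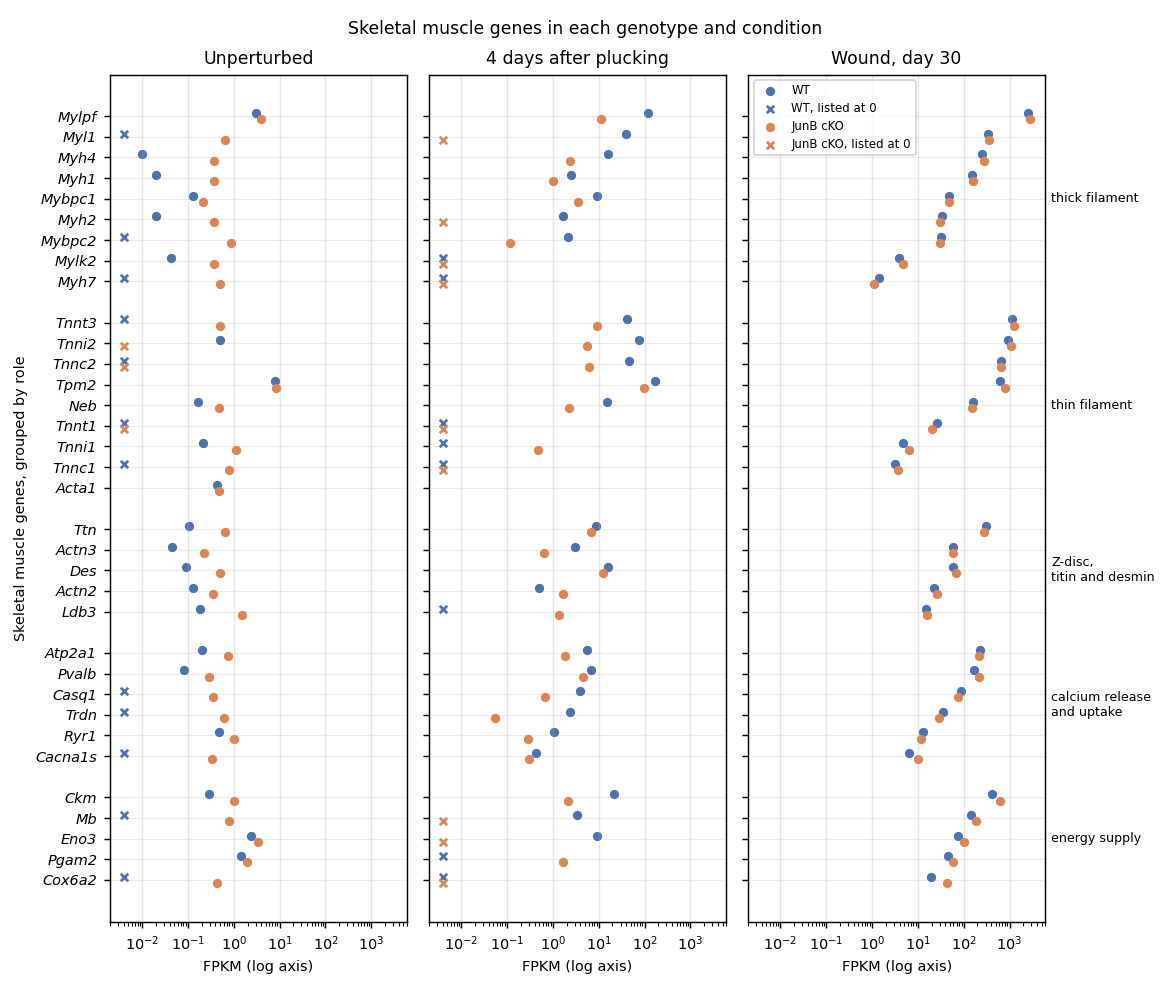
FPKM (log axis) of each skeletal muscle gene, grouped by role, in WT (blue) and JunB cKO (orange) in unperturbed samples, 4 days after plucking and in wounds; each point is 1 deposited value and crosses mark genes listed at 0. The genotypes overlie each other in wounds, from 1.14 to 2835 FPKM in JunB cKO, and are separated in plucked skin, with Mylpf at 118 in WT and 11.3 in JunB cKO.

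Thick filament genes summed to 189 FPKM in plucked WT and 18.5 in JunB cKO skin, a 10.2-fold difference. Mylpf, the regulatory light chain of fast myosin, had 118 FPKM in WT (about 1086 reads) and 11.3 FPKM in JunB cKO (about 83 reads), which is 10.4-fold lower. Myl1, the essential light chain of fast myosin, had 40.0 FPKM in WT and was listed at 0 in JunB cKO, where a single read would have given 0.0881 FPKM. Light chains were thus the most abundant thick filament transcripts in WT.

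Among the myosin heavy chains, Myh4, the chain of fast type IIb fibres, had 16.2 FPKM in WT and 2.43 in JunB cKO, 6.66-fold lower. Myh1, the chain of type IIx fibres, had 2.44 and 1.0 FPKM, respectively, 2.43-fold lower. Myh2, the chain of type IIa fibres, had 1.67 FPKM in WT and was listed at 0 in JunB cKO, and the slow chain Myh7 was listed at 0 in both genotypes. Myh4 made up 79.8% of the summed heavy chain FPKM in WT and 70.8% in JunB cKO. Reads of these chains are partly interchangeable: 16.6% of the 75-base windows of Myh1, 16.3% of Myh2 and 9.68% of Myh4 also occur in another gene, mainly in each other, so that their separate values are uncertain. Myh1, Myh2 and Myh4 lie next to each other on chromosome 11 of GRCm38 (chr11:67200052-67224575, chr11:67171027-67197517 and chr11:67238029-67260446, respectively).

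Of the myosin-binding C proteins, which brace the thick filament, the fast form Mybpc2 had 2.13 FPKM in WT and 0.116 in JunB cKO (about 119 and 5 reads). The slow form Mybpc1 had 9.17 and 3.63 FPKM, 2.53-fold lower. Mylk2, the kinase of the regulatory light chain, was listed at 0 in both genotypes.

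The 8 thin filament genes with a row summed to 351 FPKM in plucked WT and 123 in JunB cKO skin. All 3 fast troponins were lower in JunB cKO: Tnni2, the inhibitory subunit, had 76.6 and 5.58 FPKM (13.7-fold lower), Tnnc2, the calcium-binding subunit, 45.8 and 6.07 (7.55-fold), and Tnnt3, the tropomyosin-binding subunit, 40.7 and 9.12 (4.46-fold). Their slow counterparts were at or near 0, with Tnnt1 and Tnnc1 listed at 0 in both genotypes and Tnni1 at 0 in WT and 0.477 FPKM (about 6 reads) in JunB cKO. The loci listed for Tnnc2 and Tnnt3 overlap the genes Ube2c and Lsp1, respectively. Neb, the ruler of thin filament length, had 14.9 FPKM in WT and 2.28 in JunB cKO (about 5430 and 654 reads). Tpm2, a tropomyosin that smooth muscle also uses, had 173 and 99.3 FPKM, 1.74-fold lower, and was the most abundant member in both genotypes.

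Genes of the Z-disc and of the elastic and intermediate filaments differed less, with sums of 28.7 and 23.1 FPKM. Ttn, the giant elastic protein of the sarcomere, had 8.88 FPKM in WT and 6.80 in JunB cKO, 1.31-fold lower, and rested on about 15439 and 9337 reads. Des, the intermediate filament of striated and smooth muscle, had 16.3 and 12.7 FPKM, 1.28-fold lower. Actn3, the alpha-actinin of fast fibres, was 4.74-fold lower in JunB cKO (3.02 and 0.637 FPKM). Opposite to most members, Actn2, the alpha-actinin of all fibres, had 0.496 FPKM in WT and 1.63 in JunB cKO, and Ldb3, a Z-disc scaffold, was listed at 0 in WT with 1.36 FPKM in JunB cKO. The ratio of Ttn was thus small beside those of Neb and Actn3, which encode other parts of the sarcomere.

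All 6 genes of calcium release and uptake were lower in plucked JunB cKO skin, with sums of 20.3 and 7.64 FPKM. Trdn, which anchors calsequestrin to the ryanodine receptor, showed the largest ratio of all members above 0 in both genotypes, with 2.37 FPKM in WT and 0.0540 in JunB cKO (43.9-fold), the latter from about 3 reads. Casq1, the calcium store protein of fast fibres, was 5.75-fold lower (3.96 and 0.689 FPKM). Ryr1, the calcium release channel, was 3.77-fold lower (1.07 and 0.285 FPKM), and Atp2a1, the SERCA pump of fast fibres, 2.97-fold lower (5.57 and 1.88 FPKM). The locus listed for Atp2a1 overlaps the gene Rabep2, also in wounds. Pvalb, the calcium buffer of fast fibres, had 6.85 and 4.44 FPKM (1.54-fold lower), and Cacna1s, the voltage sensor, 0.428 and 0.296 FPKM (1.45-fold lower). Calcium genes thus ranged widely around the median of all members.

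For energy supply, Ckm, the muscle creatine kinase, had 21.7 FPKM in WT and 2.15 in JunB cKO, 10.1-fold lower (about 899 and 70 reads). Eno3, the enolase of muscle, had 9.33 FPKM in WT and was listed at 0 in JunB cKO. The same pattern was seen for Mb, myoglobin, with 3.44 FPKM in WT, and its listed locus overlaps the gene Apol6, also in wounds. Pgam2, the muscle phosphoglycerate mutase, showed the reverse, with 0 in WT and 1.70 FPKM in JunB cKO, and Cox6a2, a muscle subunit of cytochrome c oxidase, was listed at 0 in both.

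**Figure D2:**
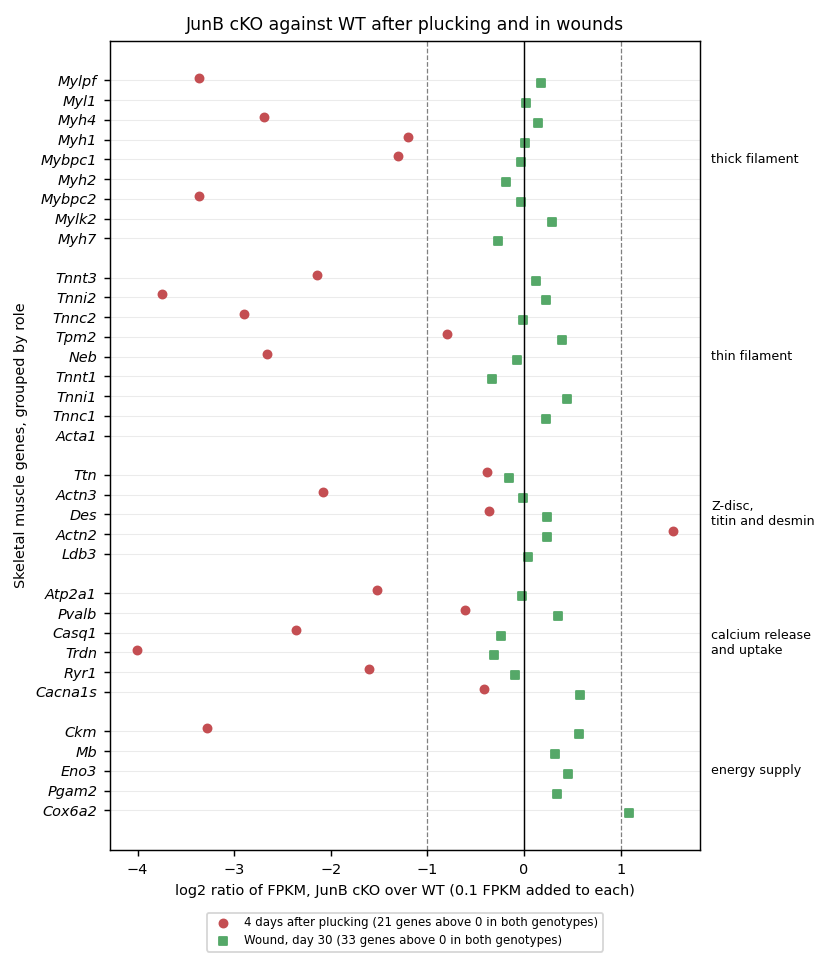
The log2 ratio of FPKM, JunB cKO over WT (0.1 FPKM added to each), for members above 0 in both genotypes after plucking (red circles, 21 genes) and in wounds (green squares, 33 genes); dashed lines mark 2-fold. After plucking the ratios spread from -4.01 (Trdn) to 1.54 (Actn2), whereas in wounds they lie between -0.33 (Tnnt1) and 1.09 (Cox6a2).

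The fibre types were next compared in plucked skin. The 14 fast fibre genes summed to 363 FPKM in WT and 43.3 in JunB cKO, 8.38-fold lower, with a median log2 ratio of -2.52. The 5 slow fibre genes summed to 9.17 and 4.11 FPKM, 2.23-fold lower, but 4 of them were listed at 0 in WT, so that this sum in WT is Mybpc1 alone. Mybpc1 alone does not show a change of slow fibres, since in wounds it exceeded its fast form, unlike the other slow genes. The 15 genes shared by fibre types, of which 14 had a row, summed to 252 and 129 FPKM, 1.96-fold lower, and Tpm2 supplied most of both sums. Their median log2 ratio was -0.61, with 10 genes lower and 3 higher. Among the lower ones were Neb (6.55-fold), Ckm (10.1-fold) and Trdn (43.9-fold), so that large differences were not limited to fast genes. Fast genes made up 97.5% of the fast and slow sum in WT and 91.3% in JunB cKO. Without Des and Tpm2, which smooth muscle also expresses, the log2 ratio of the summed members was -2.76 in place of -1.83.

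Markers of several other cell types were also lower in plucked JunB cKO skin. The 8 dermal fibroblast markers (Col1a1, Col3a1 and others) were all lower in JunB cKO and summed to 5152 FPKM in WT and 1876 in JunB cKO, 2.75-fold lower. Adipocyte markers summed to 271 and 92.9 FPKM, 2.92-fold lower, with 7 of 8 genes lower, and leukocyte markers to 374 and 174 FPKM, 2.14-fold lower, with 5 of 6 genes lower. The 10 smooth muscle markers summed to 275 and 201 FPKM, 1.37-fold lower, with 9 of 10 genes lower. Endothelial markers were 1.35-fold lower in sum, with 81.5 and 60.4 FPKM. Schwann cell markers did not share this pattern, with 84.9 and 87.4 FPKM, a median log2 ratio of 0.65 and 4 of 6 genes higher in JunB cKO. Of these, 2 passed 2-fold, 1 of them listed at 0 in WT, beside 18.2% of symbols higher. Keratinocyte markers summed to 9871 FPKM in WT and 11187 in JunB cKO, and the 16 genes used in every cell to 17428 and 17756, without a value at 0. The part of the tissue taken in each sample in the difference of the muscle genes was not tested. The labels name the plucked samples keratinocytes as the tissue but skin biopsies in the title, and transcripts of dermal fibroblasts, fat and muscle were present in both libraries.

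**Figure D3:**
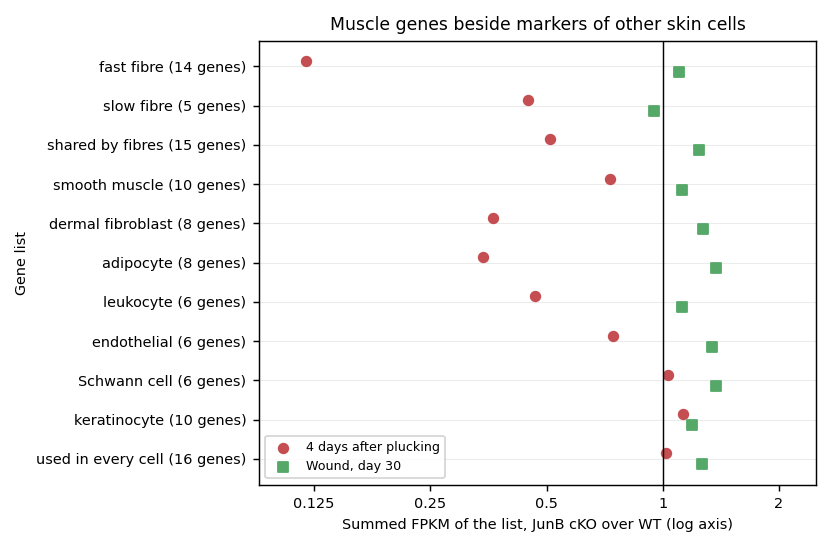
Summed FPKM of gene lists, JunB cKO over WT (log axis), after plucking (red circles) and in wounds (green squares); each point is 1 ratio of 2 sums. Fast fibre genes lie lowest after plucking, at 0.119, followed by adipocyte (0.343) and dermal fibroblast markers (0.364), while keratinocyte markers are at 1.13; in wounds all lists lie between 0.948 and 1.37.

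In wounds, the skeletal muscle genes were abundant and nearly equal in both genotypes, and the direction of the small difference depended on the scaling. The sum over 33 members was 8586 FPKM in WT and 9698 in JunB cKO, a ratio of 1.13, and all 33 members were above 0. The median log2 ratio was 0.12, or -0.10 after rescaling each column to the same total, which shifted all wound log2 ratios by -0.21, beside 0.02 over all 17346 symbols with at least 1 FPKM. A single member, Cox6a2, passed the 2-fold limit upwards in JunB cKO and 0 members passed it downwards, beside 5.69% of all these symbols higher and 5.23% lower, and the call of Cox6a2 was lost after rescaling. Of the 33 members, 31 differed by less than 1.5-fold, the exceptions being Cox6a2 and Cacna1s. The wound samples and the plucked samples thus differed in the level of muscle genes, with 8586 and 624 FPKM in WT, values that come from tables normalised separately.

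In the thick filament, Mylpf was the most abundant member of all, with 2499 FPKM in WT and 2835 in JunB cKO, or 29.1% and 29.2% of the sum of all members. Myl1 had 347 and 353 FPKM. Myh4 had 253 FPKM in WT and 279 in JunB cKO, Myh1 154 and 156, Myh2 34.4 and 30.2, and Myh7 1.40 and 1.14. The order from type IIb over IIx and IIa to slow myosin was therefore the same in both genotypes, with shares of 57.1%, 34.9%, 7.76% and 0.316% in WT and 59.9%, 33.4%, 6.46% and 0.244% in JunB cKO. Mybpc1 (48.6 and 47.6 FPKM), Mybpc2 (31.7 and 31.1 FPKM) and Mylk2 (3.94 and 4.84 FPKM) also differed little.

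Thin filament genes were led by the fast troponins. Tnnt3 had 1129.5 FPKM in WT and 1225 in JunB cKO, Tnni2 923 and 1085, and Tnnc2 642 and 640.1. Tpm2 had 606 and 795 FPKM, 1.31-fold higher in JunB cKO, and Neb 161 and 153. Of the slow troponins, Tnnt1 had 26.3 and 20.9 FPKM, Tnni1 4.82 and 6.58, and Tnnc1 3.20 and 3.77, with the locus of Tnnc1 also overlapping Nisch. None of the 8 thin filament genes differed by as much as 1.5-fold.

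Ttn had 314 FPKM in WT wounds and 279.9 in JunB cKO wounds, Actn3 59.2 and 59.0, Des 58.7 and 69.2, Actn2 22.7 and 26.8, and Ldb3 15.3 and 15.8. The genes of calcium handling summed to 535 and 562 FPKM. Atp2a1 was the highest of them with 222 and 219 FPKM, followed by Pvalb with 170.3 and 218, Casq1 with 87.6 and 74.3, Trdn with 35.6 and 28.7, Ryr1 with 12.7 and 12.0, and Cacna1s with 6.60 and 9.91. In these groups, the ratios lay on both sides of 1.

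Energy genes stood apart in wounds in that all 5 were higher in JunB cKO, with sums of 712 and 1019 FPKM, a ratio of 1.43, and all 5 were still higher after rescaling, with a ratio of 1.23. Ckm had 425 FPKM in WT and 632 in JunB cKO (1.49-fold higher), Mb 148 and 185 (1.25-fold), Eno3 73.6 and 101 (1.37-fold), and Pgam2 46.2 and 58.4 (1.26-fold). Cox6a2 had 19.9 and 42.5 FPKM, 2.14-fold higher, but its listed locus (chr7:128154019-128223816) is much longer than the gene (chr7:128205435-128206387) and overlaps Itgad, an integrin gene of leukocytes. For comparison, the 16 genes used in every cell summed to 20536 and 25807 FPKM in wounds, a ratio of 1.26, with a median log2 ratio of -0.03, and adipocyte markers had a ratio of 1.37.

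Pairs of fast and slow forms were compared within each wound column. The fast heavy chains together had 316-fold the FPKM of Myh7 in WT and 409-fold in JunB cKO. Fast troponin C had 201-fold and 169.8-fold the FPKM of its slow form, fast troponin I 191-fold and 165-fold, and fast troponin T 42.9-fold and 58.7-fold. Myosin-binding protein C was the exception, as the slow form Mybpc1 had 1.53-fold the FPKM of the fast form Mybpc2 in both genotypes. A higher value for Mybpc1 was also seen in plucked skin, 4.30-fold in WT and 31.2-fold in JunB cKO, the latter resting on about 5 reads of Mybpc2. The pair of troponin T differed most between genotypes, with log2 ratios of fast over slow of 5.42 in WT and 5.87 in JunB cKO. Fast genes accounted for 98.7% of the summed fast and slow FPKM in WT and 98.9% in JunB cKO wounds.

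**Figure D4:**
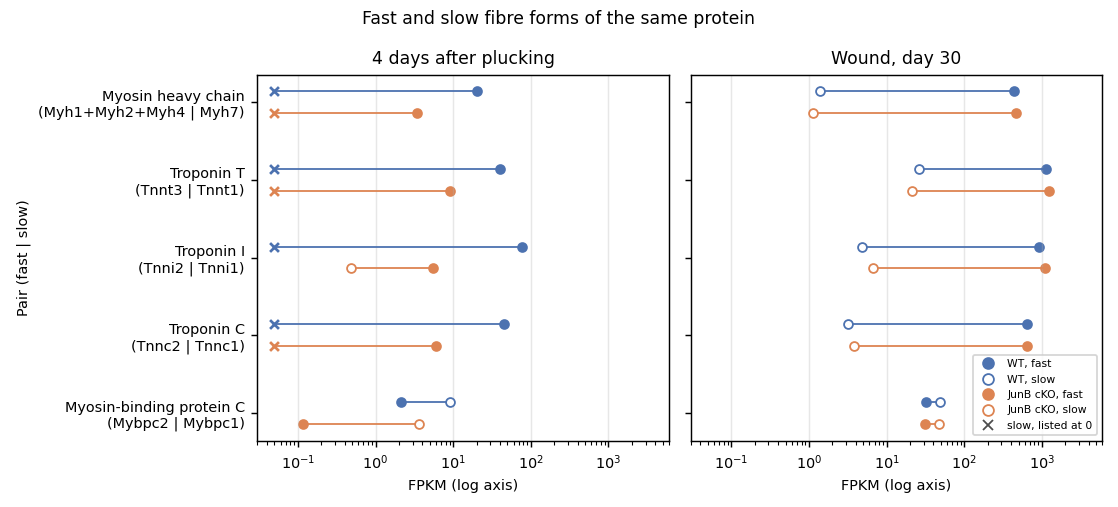
FPKM (log axis) of the fast (filled) and the slow (open) form of 5 proteins in WT (blue) and JunB cKO (orange) after plucking and in wounds; crosses mark a slow form listed at 0, drawn at the left edge. Fast forms exceed slow forms in 4 of 5 pairs, and for myosin-binding protein C the slow form is higher, with 48.6 against 31.7 FPKM in WT wounds.

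Genes of muscle that were not among the 34 members were examined by lists. In wounds, 24 other sarcomere and Z-disc genes summed to 416 FPKM in WT and 444 in JunB cKO, led by Tcap, the titin cap (47.8 and 77.3), and Xirp2 (47.3 and 37.1). Past 2-fold were 0 genes upwards and 1 downwards, beside 5.69% and 5.23% of symbols, respectively. The gene was Smyd1, a methyltransferase of muscle (22.7 and 7.32). The 10 other energy genes summed to 672 FPKM in WT and 813 in JunB cKO, with 7 genes higher and 3 lower. Past 2-fold were 1 gene upwards and 0 downwards, beside the same shares of symbols. It was Slc2a4, the insulin-responsive glucose transporter of muscle and fat, with 5.0 and 23.7 FPKM. Developmental myosins had values in wounds: Myh8, the perinatal chain, which shares 75-base windows with the far more abundant Myh1, Myh2 and Myh4 and is therefore uncertain, had 21.6 FPKM in WT and 13.0 in JunB cKO, Myl4, the embryonic light chain, 10.1 and 10.6, and Myh3, the embryonic chain, 4.03 and 2.06. Among myogenic factors, Myog (myogenin), which drives fibre differentiation, had 9.39 and 6.44 FPKM and Myf6 4.74 and 3.54. Mef2c, which many other cells express, had 203 and 159 FPKM.

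After plucking, the other muscle lists were sparse and did not move as one. The 24 other sarcomere and Z-disc genes summed to 34.4 FPKM in WT and 32.2 in JunB cKO. Their median log2 ratio was 0.00, and 12 of them were listed at 0 in WT and 13 in JunB cKO. In this list, 3 genes (Myot, Klhl41 and Unc45b, all listed at 0 in JunB cKO) passed the 2-fold limit downwards and 2 (Tcap and Smyd1, listed at 0 in WT) upwards, beside 16.0% and 18.2% of symbols, respectively. Of the 24 genes, 10 had at least 1 FPKM in either genotype, as the symbols of these shares did. Tmod4, a thin filament cap, supplied most of both sums with 17.5 and 21.9 FPKM, but it also had 7.22 and 3.09 FPKM in unperturbed samples, where muscle genes were low.

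The counts of the next lists stand beside 16.0% of symbols lower and 18.2% higher, among symbols with at least 1 FPKM in either genotype. Among 5 other slow fibre genes, 2 passed downwards and 1 upwards: Casq2, the calcium store protein of slow and cardiac fibres, had 15.9 FPKM in WT and 5.29 in JunB cKO, Myh7b 3.37 and 0.286, and Myl2, the regulatory light chain of slow myosin, 0 and 2.80. Of 9 other calcium and junction genes, 3 passed downwards and 0 upwards, with sums of 24.4 and 8.75 FPKM. Stac3, which couples the voltage sensor to calcium release, had 11.6 FPKM in WT and was listed at 0 in JunB cKO. The 10 other energy genes summed to 244 and 182 FPKM, with 2 genes past 2-fold in each direction. Aldoa, an aldolase, supplied most of both sums with 223 and 168 FPKM. It also had 301 and 227 FPKM in unperturbed samples, where muscle genes were low. Pygm, the glycogen phosphorylase of muscle (7.62 and 0.0756 FPKM), and Ampd1 (4.01 and 0.583) were lower, whereas Fabp3, a fatty acid carrier (0 and 5.12), and Slc2a4 (0.635 and 2.74) were higher. Developmental myosins were at or below 0.484 FPKM, and of 11 myogenic genes 8 were listed at 0 in both genotypes.

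In unperturbed samples, most members were low, and in JunB cKO they were close to the level of odorant, vomeronasal and taste receptor genes. The sum over 34 members was 18 FPKM in WT and 33.7 in JunB cKO, and Tpm2 alone had 8.04 and 8.46 FPKM. Mylpf had 2.99 and 3.98 FPKM (about 29 and 11 reads), Eno3 2.39 and 3.33, and Pgam2 1.43 and 1.99. Every other member was at most 0.507 FPKM in WT, and Acta1 had 0.432 and 0.488 FPKM. A listing at 0, as found for 12 members in WT, shows little in this table, since Gapdh, which every cell uses, was listed at 0 in both genotypes and Ppia in WT. Myh4 had 0.0102 FPKM in WT, which is about 1 read, and 0.379 in JunB cKO, about 11 reads. Defining dermal markers were also low, as fibroblast markers summed to 13.9 FPKM in either genotype, beside 11603 and 13015 FPKM for keratinocyte markers.

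The median log2 ratio of all 34 members in unperturbed samples was 1.69, but it was 0.46 over the 6 members with at least 1 FPKM in either genotype, beside -0.04 over the 15883 symbols that meet the same limit. With 1 FPKM in place of 0.1 FPKM added to each value, the median over 34 members was 0.43. A single member, Ldb3 (0.183 and 1.49 FPKM), passed the 2-fold limit upwards in JunB cKO and 0 passed it downwards, beside 15.4% and 1.40% of symbols, respectively. Only the 6 members with at least 1 FPKM could pass this limit, since 1 FPKM added to each value keeps lower genes from reaching it. The count is thus to be read over 6 members and not over 34. The 1480 odorant, vomeronasal and taste receptor genes had a median of 0 FPKM in WT and 0.543 in JunB cKO, and the members had medians of 0.0643 and 0.509. Of the 34 members, 28 were at or below 1.09 FPKM in JunB cKO, which is 2 times the receptor median. When the receptor median was subtracted from each column, with values below 0 set to 0, the median log2 ratio of the members was 0.00. As the receptor median was 0 in WT, only the JunB cKO column changed. The member median there was below the amount subtracted, so many members were set to 0 and the 0.00 decides nothing. The higher values in JunB cKO thus came with a higher level of receptor genes and with fewer reads per FPKM, and the part of either in the ratio was not tested further.

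**Figure D5:**
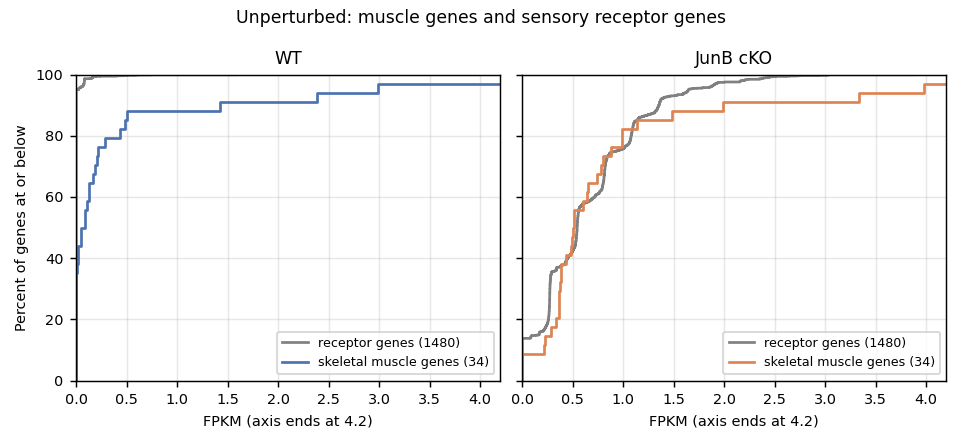
Cumulative percent of genes at or below a given FPKM in unperturbed samples, for 1480 sensory receptor genes (grey) and 34 skeletal muscle genes (coloured), in WT and JunB cKO. In JunB cKO both curves run together, with medians of 0.543 and 0.509 FPKM, and the few muscle genes to the right include Mylpf and Eno3, with Tpm2 beyond the axis; in WT the receptor median is 0.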

How the data were processed

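RNA-seq of 8 libraries was used, namely 1 per genotype for unperturbed samples and hair plucking and 2 per genotype for wounds. According to the methods, rRNA-depleted, stranded single-end reads of 75 bases were aligned to GRCm38 with TopHat or HISAT2, and the authors calculated FPKM with Cufflinks and Cuffdiff. The deposited tables give 1 FPKM value per gene locus and genotype. Their columns of status, log2 fold change, test statistic, p-value, q-value and significance were not used. Columns were assigned by the genotype names inside the tables and conditions by the names of the tables. Strand settings of the counting are not given in the sources used here.

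The members and lists were chosen with earlier results of these data known. For each symbol, 1 locus was kept, that with the larger sum of FPKM values. Ratios are log2((cKO + 0.1)/(WT + 0.1)), which understates the change of low genes, and counts use a pseudocount of 1 FPKM and a limit of 2-fold. Named were all 34 members and, of other lists, at most the 4 genes with the highest summed FPKM in a table and genes at 2-fold with at least 10 FPKM. Ampd1, Fabp3, Myot, Klhl41, Tcap, Smyd1 and Slc2a4 in plucked skin were named after their values were seen. Coordinates are 1-based, with genes from GENCODE M21. Reads per FPKM come from single-exon genes of 800 to 3000 bases, assuming fragments of 200 ± 80 bases (mean and SD); 98.3% to 100.0% of low values lay within 0.05 reads of a whole number. Alternatives were other pseudocounts, fold limits, scalings and subsets of members. Fold calls were tested on simulated data. That checked the calculation only and says nothing about the spread between mice or the difference between genotypes. Proteins, although planned, were not printed, since their sequences were not used here. Python 3.11.15, pandas 2.3.3, numpy 2.4.6 and matplotlib 3.10.9 were used.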

Additional observations from a re-analysis of the deposited data

Results flagged for a closer look

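The reported median and summed ratios had opposite signs in plucked skin and in the other tables. The median log2 ratio of the members was -1.52 after plucking, and it was 1.69 in unperturbed samples and 0.12 in wounds. The log2 ratio of the summed members was -1.83 after plucking, 0.91 in unperturbed samples and 0.18 in wounds. The sign in wounds was not stable, with -0.10 and -0.04, respectively, after rescaling each column to the same total. In unperturbed samples the median was 0.00 and the summed ratio 0.10 after subtracting the receptor median, which set many JunB cKO values to 0. With 1 value per genotype in each table, the difference between tables was not tested, and tables were normalised separately.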

How the results depend on the processing

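Under the alternatives, 135 values lay within 1.5-fold of the reported value and 31 did not. Some of the 135 could not differ. The limit of 1 FPKM cannot change the 2-fold counts, and in wounds all 33 members met it and were above 0. Among medians or ratios of at least 2-fold, 0 changed sign. Smaller ones did: in wounds, rescaling each column to the same total turned the median from 0.12 to -0.10 and the summed log2 ratio from 0.18 to -0.04, and 6 unperturbed values of fast against slow genes and isoform pairs changed sign, as listed for that table. In plucked skin, the median log2 ratio was -2.25 among members with at least 1 FPKM. Without Des and Tpm2 the summed log2 ratio was -2.76. The count of lower members, 17, was 10 at 4-fold and 19 at a pseudocount of 0.1, with all 17 among the 19. It was 13 without members listed at 0 and also 13 without members whose locus overlaps another protein-coding gene. The count of higher members, 2, was 0 at 4-fold, 4 at a pseudocount of 0.1, 0 without members listed at 0 and 2 without overlapping loci. The median of fast genes minus that of slow genes, -2.52, was -1.52 at a pseudocount of 1, -1.37 among members with at least 1 FPKM and -1.05 without members listed at 0. As 3 of the 5 slow genes were listed at 0 in both genotypes, the slow median was 0.00 and -2.52 is the fast median alone. The values of -1.37 and -1.05 rest on Mybpc1 as the only slow gene. The median change of the isoform pairs, -2.53, was -4.17 without members whose locus overlaps another protein-coding gene, an alternative added after the data were seen. For heavy chains, troponin T and troponin C, the slow form was listed at 0 in both genotypes, so that these pairs show the fast form only.

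In unperturbed samples, the median log2 ratio was 2.37 and 0.43 with pseudocounts of 0.01 and 1, and 0.46 among members with at least 1 FPKM. Subtracting the receptor median, which set many JunB cKO values to 0, gave a median of 0.00 and a summed log2 ratio of 0.10. The count of higher members was 10 at 1.5-fold, 0 at 4-fold, 24 at a pseudocount of 0.1, 0 after rescaling each column to the same total and 0 after subtracting the receptor median, and the count of lower members was 1 at 1.5-fold and 1 at a pseudocount of 0.1. Fast minus slow, -0.14, was 0.88 at a pseudocount of 0.01, -1.58 among members with at least 1 FPKM, 0.36 without members listed at 0 and 1.51 without overlapping loci, and the isoform pairs, 0.42, gave -1.47, -0.88 and -0.59 at a pseudocount of 0.01, without overlapping loci and after subtraction, respectively. In wounds, the 1 higher member was lost (0) after rescaling, at 4-fold and without overlapping loci, the last of which leaves out Cox6a2 itself. Apart from that, the cause of these shifts was not tested.

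No paired analysis was possible because the wound table does not separate its 2 libraries per genotype, and for the same reason no fit without 1 library was run. Of the 4 unperturbed and plucked columns, unperturbed JunB cKO had the lowest depth, at 4.98 reads per FPKM and kb, while the depth of the wound columns was not estimated.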
